A study of Mus musculus with 12 samples.

Results

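The genes of the proteasome were followed in the dorsal root ganglia (DRG) of mice that model NF2-related schwannomatosis. The family was taken as every gene of the count table whose symbol is Psma, Psmb, Psmc or Psmd followed by a number, together with the activator genes Psme1, Psme2, Psme3 and Psme4. This rule selected 43 genes of 49315 in the table, of which 41 had enough reads for the comparison of genotypes and 2 did not. Psma8, the testis form of an alpha subunit, had 0 to 15 reads per mouse, and Psmb11, the thymus form of a beta subunit, had 0 to 3.

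Bulk RNA sequencing was done on DRG of 12 mice aged 10 months, with 1 library per mouse and 6 mice per genotype. Nf2 mice were Postn-Cre(+) with Nf2 flox/flox alleles, and DKO (double knockout) mice had Fak1 flox/flox alleles in addition, Fak1 being the gene annotated as Ptk2. Both genotypes therefore lacked Nf2 in cells with a history of Postn-Cre, which comprise Schwann cells and their precursors, and differed by Fak. About 8 ganglia per mouse were pooled, and each genotype held 3 mice labelled male and 3 labelled female. None of the 12 libraries came from a mouse with intact Nf2, so a level in either genotype cannot be set against normal DRG.

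The proteasome degrades proteins tagged with ubiquitin. Its 20S core is a stack of alpha and beta rings, and the alpha rings form the gate while a few beta subunits carry the proteolytic sites. The 19S particle caps the core, where its base binds ubiquitin and unfolds substrates with ATPases and its lid holds a deubiquitinase. Interferon-gamma induces alternative catalytic subunits, which replace their constitutive partners to form the immunoproteasome, and a PA28 activator that favours peptides for major histocompatibility complex class I. When proteasome activity falls, the transcription factor NRF1, the product of Nfe2l1, induces the subunit genes together.

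Total counts ran from 23479473 to 29576506 across the Nf2 libraries and from 21129191 to 41250329 across the DKO libraries. Ptk2 had 65.8 to 75.5 CPM (counts scaled to the library total) in the Nf2 group and 46.5 to 76.0 in the DKO group, and Nf2 had 108.6 to 143.3 and 99.2 to 131.8 CPM. Neither gene separated the genotypes, and a count over a whole gene in a tissue of many cell types does not measure deletion in Cre-positive cells. DRG identity was checked on 9 sensory neuron markers, whose CPM summed to 6071 to 8400 in Nf2 and 6286 to 7580 in DKO mice, and on 9 Schwann and satellite glia markers, which summed to 8249 to 10893 and 7756 to 11415. Mouse 702, an Nf2 mouse labelled male, had 496 CPM of the X-linked Xist and 0.525 CPM of the Y-linked Ddx3y, which goes against its label. Mitochondrial genes took 4.45% of counts in Nf2 mouse 649 and 5.60% in DKO mouse 887, against 1.99% to 3.15% in the other 10 mice. The genotype differences of genes that these mice set apart are given with and without them.

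Proteasome transcripts made up a similar share of the DRG transcriptome in both genotypes. Summed over the 43 genes, Nf2 mice had 4055 to 5083 CPM with a median of 4236, and DKO mice had 3981 to 4413 CPM with a median of 4257. The genotypes overlapped, and the highest sum belonged to mouse 649, in which the family took 0.508% of all counts. The other 10 mice outside 649 and 887 lay between 0.398% and 0.456%.

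Levels of different genes were compared as CPM per kilobase (kb) of annotated exon. Over the 31 constitutive subunits of the 20S core and the 19S base and lid, the mean level ran from 11.5 CPM per kb for Psmd11, a lid scaffold subunit, to 123 for Psmc5, an ATPase of the base, with a median of 37.6. The assembled particle holds these subunits in fixed proportion, whereas their transcript levels per kb spanned 10.7-fold. Alpha ring genes ranged from 31.4 CPM per kb (Psma2) to 90.6 (Psma6), and constitutive beta ring genes from 31.5 (Psmb1) to 95.3 (Psmb5, the chymotrypsin-like site). Exon length here was the union of all annotated exons of a gene, so genes with long unused exons were placed too low.

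Among the interferon-inducible genes, Psmb9 lay below all 31 constitutive subunits on this scale, and the others lay within their range. Psmb8 had a mean level of 12.7 CPM per kb and Psmb9 had 4.62, while Psmb10 stood at 23.2, beside the lid gene Psmd8 at 23.2. Among the activators, Psme1 and Psme2, the subunits of PA28 alpha-beta, had 20.1 and 32.0 CPM per kb, the nuclear activator Psme3 (PA28 gamma) had 25.6 and the large activator Psme4 (PA200) had 11.5. The chaperones that assemble the base, Psmd5, Psmd9 and Psmd10, lay at 8.62, 3.11 and 15.1 CPM per kb.

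**Figure D1:**
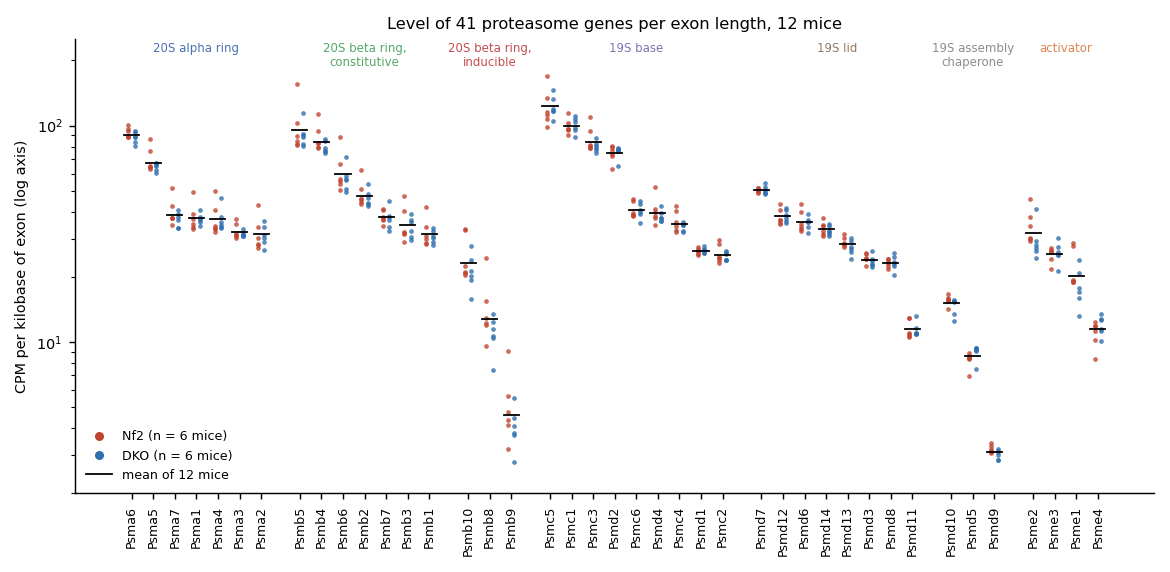
Mean level of each of the 41 tested proteasome genes over 12 mice in CPM per kb of exon on a log axis, grouped by role, with points for single mice. The constitutive core and 19S genes lie between 11.5 and 123 CPM per kb, and Psmb8 and Psmb9 lie at or near the low end with the widest scatter between mice.

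Variation between mice over all 12 libraries differed by role. The coefficient of variation (CV, the SD over 12 mice as a percentage of the mean CPM) had a median of 9.47% over the 41 genes, beside 16.0% over all 18295 genes tested and 10.8% over the 9191 genes at least as highly expressed as the lowest of the 41. Lid genes had a median CV of 6.62% and base genes 7.98%, alpha ring genes 11.5% and constitutive beta ring genes 12.7%. Mouse 649 entered these values, and the CV without it was not computed. Its median log2 departure from the mean of 12 mice was 0.42 over the constitutive 20S genes and 0.18 over base and lid genes. In the other mice the constitutive 20S median lay between -0.16 and 0.14. The tightest were Psmd1, a scaffold of the base, at 3.02%, and Psmd7, a lid subunit, at 3.48%. Psmd1 ranged from 183 to 200 CPM in the Nf2 group and from 187 to 201 CPM in the DKO group. The widest were the inducible genes Psmb9 at 35.1%, Psmb8 at 33.1% and Psmb10 at 23.1%, followed by Psme1 at 22.8% and Psmb5 at 22.4%.

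Whether loss of Fak changed the family was addressed by comparing DKO with Nf2 mice. None of the 41 genes passed the threshold of an adjusted p of 0.05 (edgeR quasi-likelihood test, Benjamini-Hochberg adjustment over 18295 genes), against 172 genes, or 0.94%, of all genes tested (0.372% higher and 0.568% lower in DKO). None had an unadjusted p under 0.05 either, which 14.9% of all genes had, and DESeq2 and limma voom called 0 genes of the family at the adjusted threshold with 1 (Psmb8) and 2 (Psme2, Psmd9) at an unadjusted p under 0.05. The smallest adjusted p by edgeR was 0.371, for Psmb8. In none of the 41 genes were the genotypes free of overlap in CPM, which held for 1.95% of all genes (1.04% with DKO lower).

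The estimates themselves were small and mostly below 0. Of the 41 fitted log2 fold changes (DKO against Nf2), 38 were below 0, beside 49.0% of all genes, and their median was -0.07, beside 0.005 for all genes. Among the 9191 genes at least as highly expressed as the lowest of the 41, 4967 were below 0 and the median was -0.01. With library totals left unscaled, 32 of 41 were below 0. The genes were measured in the same libraries, so their shared sign is not 38 separate observations. Without mouse 649, the Nf2 mouse with the highest sum, 24 of 41 were below 0 and the median was -0.02. The 14 constitutive 20S genes then had a median of 0.0002, where all 12 mice had given -0.09. Without DKO mouse 887 instead, 36 of 41 were below 0 with a median of -0.10, and the constitutive 20S median was -0.12. Without both mice 649 and 887, 31 of 41 were below 0 with a median of -0.04, and the constitutive 20S median was -0.04.

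**Figure D2:**
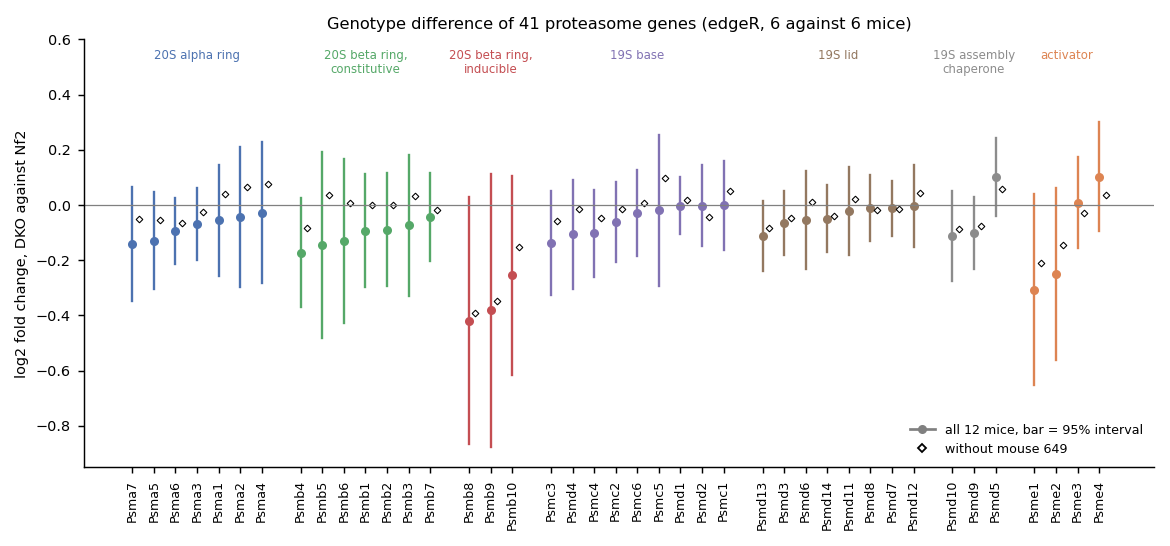
Log2 fold change of each of the 41 tested genes, DKO against Nf2, with its 95% confidence interval from edgeR, grouped by role, and open diamonds for the estimate without mouse 649. 38 estimates lie below 0, every interval includes 0, and the intervals of Psmb8, Psmb9, Psmb10, Psme1 and Psme2 are among the widest.

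For most subunits the data bounded the difference closely. The median standard error was 0.0823 on the log2 scale, against 0.124 over all genes. Over the 9191 genes at least as highly expressed as the lowest of the 41 it was 0.0849, so the precision was not particular to the family. For 30 of the 41 genes the 95% confidence interval lay within 0.32 on the log2 scale in either direction, which is a rise of 25% or the matching fall, and for 37 within 0.58, which is 1.5-fold. The 4 genes with wider intervals were Psmb8, Psmb9, Psmb10 and Psme1, which interferon-gamma induces. Psmd1 differed by -0.002 on the log2 scale (95% interval -0.10 to 0.10) and Psmd7 by -0.01 (-0.11 to 0.09). In bulk DRG, fewer cells of a type and less RNA per cell cannot be told apart.

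Within the 20S core, the 7 tested alpha genes had log2 fold changes of -0.14 (Psma7) to -0.03 (Psma4) with a median of -0.07, and the 7 constitutive beta genes -0.17 (Psmb4) to -0.04 (Psmb7) with a median of -0.09. Psmb4, a non-catalytic beta subunit, had 172.9 ± 25.9 CPM in Nf2 and 155.4 ± 10.2 CPM in DKO mice (SD, n = 6 each), with an edgeR adjusted p of 0.416. The 9 base genes lay between -0.14 (Psmc3) and -0.001 (Psmc1) and the 8 lid genes between -0.11 (Psmd13) and -0.003 (Psmd12). Psmd13, a lid subunit on chromosome 7, had 98.5 ± 5.20 CPM in Nf2 and 92.3 ± 7.11 CPM in DKO mice and a log2 fold change of -0.11 ± 0.06 (SE, edgeR adjusted p = 0.402). In Nf2 mice Psmd13 ranged from 93.2 to 107 CPM with a median of 96.5, and in DKO mice from 82.1 to 102 with a median of 91.7. The low DKO value was that of mouse 887, and the ranges overlapped.

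The 3 estimates above 0 belonged to Psmd5, Psme4 and Psme3. Psmd5, a chaperone that holds the base before the core joins it, had 50.2 to 64.2 CPM in Nf2 mice with a median of 61.0, and 54.4 to 68.1 in DKO mice with a median of 66.8. The lowest mouse was 649 in the Nf2 group and 887 in the DKO group, and the ranges of the genotypes overlapped. The log2 fold change of Psmd5 was 0.10 ± 0.07 (edgeR adjusted p = 0.520) over all mice. It was 0.09 ± 0.04 (edgeR adjusted p = 0.270) without mice 649 and 887, a set chosen after the data had been seen. It was 0.06 without mouse 649 alone and 0.13 without mouse 887 alone.

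The catalytic subunits of the constitutive core are Psmb5, Psmb6 and Psmb7, which carry the chymotrypsin-like, caspase-like and trypsin-like sites. Psmb5 lies on chromosome 14 (54614119 to 54618022, minus strand, GRCm38), Psmb6 on chromosome 11 (70525367 to 70527858, plus strand) and Psmb7 on chromosome 2 (38588036 to 38644087, minus strand). Their inducible counterparts are Psmb8 for Psmb5, Psmb9 for Psmb6 and Psmb10 for Psmb7. Psmb8 (34197721 to 34201454, plus strand) and Psmb9 (34181987 to 34187764, minus strand) flank the peptide transporter gene Tap1 in the major histocompatibility complex on chromosome 17. Psmb9 shares 5.79% of its exon bases with Tap1, which lies on the opposite strand. Some reads of either gene could thus have been given to the other or dropped. Psmb8 shares 14.7% with Gm20496, Psmb5 12.1% with Mir686 and Psmb7 11.8% with Nek6, where the same limit holds.

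The promoters of Psmb5, Psmb6, Psmb8 and Psmb9 are shown because these pairs exchange places in the particle under interferon. The remaining pair, Psmb10 and Psmb7, exchanges likewise and is not shown. Psmb7 had no promoter entry, and the Psmb10 window held none of the motifs described below. The sequences are the RefSeq windows around the transcription start (GRCm38.p6), 5′ to 3′ in the direction of the gene. Capitals mark matches, on either strand, to the core of the antioxidant response element bound by NRF1 and NRF2 (TGACNNNGC), to an interferon-stimulated response element (GAAA, any 2 bases, GAAA) or to the CCAAT box.
Psmb5, chr14:54617946-54618245, minus strand: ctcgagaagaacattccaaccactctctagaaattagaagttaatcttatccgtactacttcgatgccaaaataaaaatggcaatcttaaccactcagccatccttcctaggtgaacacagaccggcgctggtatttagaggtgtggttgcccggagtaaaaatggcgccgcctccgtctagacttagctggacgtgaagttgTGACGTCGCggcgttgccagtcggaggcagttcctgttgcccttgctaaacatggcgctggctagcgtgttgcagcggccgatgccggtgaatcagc
Psmb6, chr11:70525107-70525406, plus strand: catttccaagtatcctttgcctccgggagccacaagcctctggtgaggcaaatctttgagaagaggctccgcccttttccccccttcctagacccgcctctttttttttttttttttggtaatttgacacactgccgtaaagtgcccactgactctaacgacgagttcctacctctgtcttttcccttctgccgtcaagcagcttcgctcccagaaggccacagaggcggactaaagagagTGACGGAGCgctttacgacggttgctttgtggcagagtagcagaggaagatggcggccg
Psmb8, chr17:34197945-34198244, plus strand: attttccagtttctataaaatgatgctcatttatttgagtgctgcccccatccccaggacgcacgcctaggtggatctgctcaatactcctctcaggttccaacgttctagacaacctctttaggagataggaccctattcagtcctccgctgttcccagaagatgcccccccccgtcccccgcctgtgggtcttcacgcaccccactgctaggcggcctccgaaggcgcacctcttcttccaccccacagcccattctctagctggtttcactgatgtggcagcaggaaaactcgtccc
Psmb9, chr17:34187281-34187580, minus strand: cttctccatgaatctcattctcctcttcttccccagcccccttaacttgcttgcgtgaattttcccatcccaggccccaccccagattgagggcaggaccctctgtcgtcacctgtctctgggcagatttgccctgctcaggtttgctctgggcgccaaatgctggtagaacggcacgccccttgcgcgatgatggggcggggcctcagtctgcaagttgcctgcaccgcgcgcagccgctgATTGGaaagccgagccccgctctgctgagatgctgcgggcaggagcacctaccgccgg
Psmb5 and Psmb6 each held TGACNNNGC, Psmb9 held the CCAAT box alone, and the Psmb8 window held none of these letters. The Psmb8 and Psmb9 windows lie wholly inside the annotated gene positions given above. Sequence upstream of those annotated gene starts was therefore not searched for these genes. Across the family, 36 of 43 genes matched a promoter entry, with 39 windows in all. TGACNNNGC occurred in 6 of these windows (15.4%), those of Psmb5, Psmb6, Psmc6, Psmd9, Psmd12 and Psme4, and in 12.4% of all 32851 promoter windows. The interferon-stimulated element occurred in 4 windows (10.3% beside 3.44% of all), those of Psmb3, Psmd4, Psmd9 and Psme1. Of these genes only Psme1 is counted here among the interferon-inducible genes. CCAAT occurred in 14 windows (35.9% beside 37.4%). The motifs were searched separately and none contains another in full. A match describes the letters of the window and shows no binding.

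Psmb5 had 72.8 to 140 CPM in Nf2 mice with a median of 78.7, and 72.4 to 102 CPM in DKO mice with a median of 80.5. Psmb6 had 93.8 to 165 CPM in Nf2 mice with a median of 105.1, and 92.5 to 134 in DKO mice with a median of 105.1. In both genes mouse 649 was the highest Nf2 mouse and mouse 887 the highest DKO mouse, and the remaining mice of both genotypes intermingled. The log2 fold change was -0.14 ± 0.16 for Psmb5 (edgeR adjusted p = 0.724) and -0.13 ± 0.14 for Psmb6 (adjusted p = 0.719), and they were 0.03 and 0.006 without mouse 649 and -0.24 and -0.22 without mouse 887. Psmb7 ranged from 117 to 140 CPM in the Nf2 group and from 112 to 153 CPM in the DKO group. Its medians were 128.4 and 126.8 CPM, the highest and the lowest mouse were both DKO mice, and its log2 fold change was -0.04 ± 0.07 (edgeR adjusted p = 0.838).

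Over all 12 mice, the 5 interferon-inducible genes Psmb8, Psmb9, Psme1, Psmb10 and Psme2 had the 5 lowest log2 fold changes of the family, and none passed the test. Psmb8 had 32.5 to 82.6 CPM in Nf2 mice with a median of 42.6, and 25.1 to 45.5 CPM in DKO mice with a median of 37.3. The value of 82.6 was that of mouse 702 and lay far above the next Nf2 mouse, 649 with 52.3 CPM, and the other 4 Nf2 mice lay within the DKO range. Its log2 fold change was -0.42 ± 0.21 (95% interval -0.87 to 0.03, edgeR adjusted p = 0.371), and without mouse 702 it was -0.20 ± 0.15 (adjusted p = 0.607).

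Psmb9 showed the same arrangement at lower level. Nf2 mice had 11.8 to 33.1 CPM with a median of 16.7, and DKO mice 10.2 to 20.1 with a median of 14.4. Mouse 702 again had the highest value and was followed by mouse 649 with 20.7 CPM and the DKO mouse 887 with 20.1. The log2 fold change of Psmb9 was -0.38 ± 0.23 (edgeR adjusted p = 0.480), and -0.14 ± 0.18 (adjusted p = 0.762) without mouse 702.

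Psmb10, on chromosome 8, had 34.7 to 56.6 CPM in Nf2 mice with a median of 37.2, and 27.0 to 47.5 in DKO mice with a median of 35.2. Mice 649 and 702 were the highest of the Nf2 group, with 56.6 and 56.1 CPM, and mouse 887 the highest of the DKO group. The 4 other Nf2 mice spanned 34.7 to 38.3 CPM, inside the DKO range. The log2 fold change of Psmb10 was -0.25 ± 0.17 (edgeR adjusted p = 0.522). It was -0.15 without mouse 649, -0.16 without mouse 702 and -0.36 without mouse 887.

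Psme1 and Psme2, which form the interferon-induced PA28 ring, lie close together on chromosome 14, at 55578123 to 55581529 and 55587441 to 55591113. Psme1 had 41.7 to 63.6 CPM in Nf2 mice with a median of 42.5, and 29.2 to 53.1 in DKO mice with a median of 38.5. Mice 649 and 702 stood above the rest of the Nf2 group, whose other 4 mice lay between 41.7 and 42.9 CPM, and mouse 887 stood above the rest of the DKO group. Its log2 fold change was -0.31 ± 0.16 (edgeR adjusted p = 0.403). It was -0.21 without mouse 649, -0.23 without mouse 702 and -0.42 without mouse 887.

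Psme2 had 51.9 to 80.7 CPM in Nf2 mice with a median of 57.0, and 43.3 to 72.6 in DKO mice with a median of 48.7. The DKO value of 72.6 was that of mouse 887. The other 5 DKO mice had at most 51.8 CPM, and the lowest Nf2 mouse had 51.9. Its log2 fold change was -0.25 ± 0.15 (edgeR adjusted p = 0.461) over all mice. It was -0.15 ± 0.13 (adjusted p = 0.691) without mouse 649, -0.39 ± 0.12 (adjusted p = 0.125) without mouse 887 and -0.28 ± 0.08 (adjusted p = 0.102) without mice 649 and 887, the smallest adjusted p of any proteasome gene in any fit of genotype. The near-identical gene Psme2b had 64 to 148 reads per mouse, so reads of the pair could have been split.

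The other activators, Psme3 and Psme4, are not induced by interferon. Psme3 had 64.4 to 80.1 CPM in Nf2 mice with a median of 77.1, and 62.5 to 88.9 in DKO mice with a median of 75.5, and its log2 fold change was 0.01 ± 0.08 (edgeR adjusted p = 0.974). Psme4 had 70.02 to 103 CPM in Nf2 mice with a median of 96.7, and 84.5 to 113 in DKO mice with a median of 101, and its log2 fold change was 0.10 ± 0.09 (edgeR adjusted p = 0.662), or 0.04 without mouse 649. For both genes the lowest mouse of each genotype was 649 or 887, the mice that were highest for Psmb5, Psmb6 and Psme2.

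**Figure D3:**
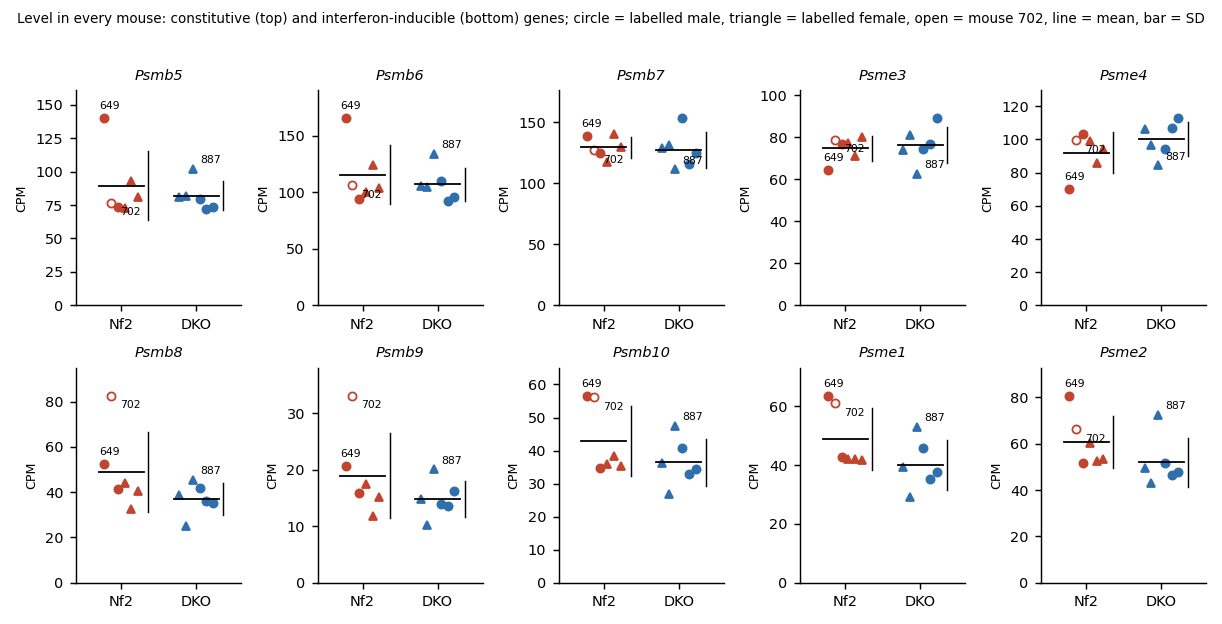
CPM of 10 genes in each of 12 mice, with constitutive genes in the top row and interferon-inducible genes in the bottom row. Circles are mice labelled male and triangles mice labelled female, the open circle is mouse 702, the horizontal line is the mean and the vertical bar spans 1 SD on either side. Mouse 702 is the highest for Psmb8 and Psmb9, mouse 649 is the highest for Psmb5 and Psmb6, and mouse 887 is the lowest DKO mouse for Psme3 and Psme4.

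Whether the mixture of constitutive and inducible catalytic subunits differed between genotypes was examined within each library, where no scaling between libraries is needed. The log2 ratio of Psmb8 to Psmb5 counts was -0.90 ± 0.58 in Nf2 and -1.16 ± 0.28 in DKO mice (SD, n = 6 each), a difference of -0.26 (p = 0.387, two-sided exact permutation test over 924 splits, adjusted over 3 pairs to 0.481). The difference was -0.21 for Psmb9 to Psmb6 (exact permutation p = 0.481, adjusted 0.481) and -0.19 for Psmb10 to Psmb7 (exact permutation p = 0.316, adjusted 0.481). The smallest p this design allows is 0.00216. Without mouse 702 the differences were -0.06, -0.02 and -0.10 (exact permutation p = 0.768, 0.946 and 0.567).

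Per kb of exon, Psmb8 made up 8.53% to 22.3% of the Psmb8 and Psmb5 total in the Nf2 group and 7.51% to 12.3% in the DKO group. Mouse 702 had 22.3%, against medians of 12.3% and 11.3%. Psmb9 made up 4.62% to 13.7% of its pair in Nf2 mice, with mouse 702 again highest, and 4.74% to 8.01% in DKO mice. Psmb10 had the largest inducible share on this scale, at 35.4% to 46.9% in Nf2 and 29.2% to 46.1% in DKO mice. Mouse 702 and mouse 887 were highest in the respective genotypes. This order of the pairs depends on the exon lengths used. On counts alone, the mean log2 ratio of Psmb8 to Psmb5 was -0.90 in Nf2 and -1.16 in DKO mice. That of Psmb10 to Psmb7 was lower, at -1.63 and -1.82. The constitutive transcript exceeded its inducible partner per kb in every mouse and pair. This rests on the annotated exon length, 3381 bases for Psmb8 and 899 for Psmb5, and on counts alone Psmb8 exceeded Psmb5 in mouse 702, with a ratio of 1.08.

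**Figure D4:**
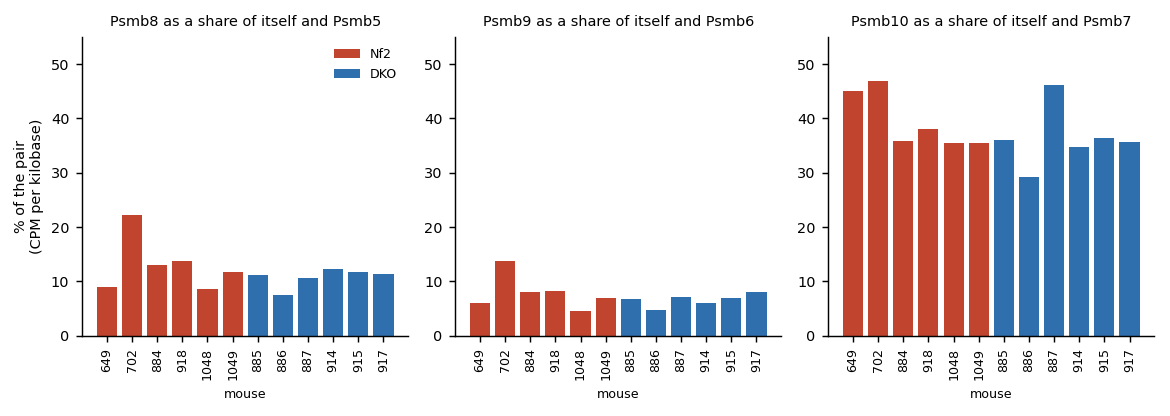
Share of the inducible gene in the summed level per kb of each inducible and constitutive pair, in percent, with 1 bar for each of 12 mice. Mouse 702 has the highest share in all 3 pairs, with 22.3% for Psmb8, and the other mice of both genotypes overlap.

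Genes that use or accompany the immunoproteasome were read beside these values. Of 11 genes of class I antigen processing, 0 passed the edgeR test and 3 had an unadjusted p under 0.05, beside 0.94% and 14.9% of all genes. In this list 10 had estimates below 0, and the median log2 fold change was -0.24, or -0.09 without mouse 702. The smallest p in this list belonged to H2-K1, a class I heavy chain, with 214.8 ± 50.8 CPM in Nf2 and 143 ± 30.0 in DKO mice (log2 fold change -0.61 ± 0.17, edgeR adjusted p = 0.112). Their CPM summed to 2025 to 3326 in Nf2 mice, with 702 highest, and to 1563 to 2518 in DKO mice, with 887 highest. Of 18 interferon response genes tested among 19, none passed (0 with an unadjusted p under 0.05) and 11 had estimates below 0. Their median log2 fold change was -0.08 over all mice and 0.22, above 0, without mouse 702. Their sum was 1406 CPM in mouse 702 against at most 776.5 in the other Nf2 mice, and 518 to 1107 in DKO mice, with 887 highest. For Psmb8 and Psmb9, the highest mouse of each genotype was thus also the one with the most interferon response transcript.

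Markers of immune cells were examined because such cells express the immunoproteasome constitutively. All 12 macrophage and monocyte markers had estimates below 0 with a median log2 fold change of -0.43. Of these, 8 had an unadjusted p under 0.05, and 1, C1qb, passed the edgeR test, beside 14.9% and 0.94% of all genes. Their CPM summed to 214.6 to 314.8 in Nf2 and to 188.6 to 241.9 in DKO mice. Mouse 702 had the highest sum and mouse 887 the lowest. The 8 T and NK cell markers summed to 3.37 to 7.91 and 2.90 to 6.43 CPM and the 8 B and plasma cell markers to 22.7 to 57.1 and 19.1 to 66.5 CPM, with a median log2 fold change of -0.51 over 7 tested and 0.81 over 8. Of the 7 T and NK cell markers, 6 had estimates below 0 and 1 had an unadjusted p under 0.05. Of the 8 B and plasma cell markers, only 1 was below 0 and 5 had an unadjusted p under 0.05. None of either list passed. Skeletal muscle markers, from tissue that can be dissected along, summed to 13.6 to 944 CPM in Nf2 and 18.3 to 314 CPM in DKO mice, with all 11 estimates below 0, 10 at an unadjusted p under 0.05 and none passing, while the 5 testis germ cell markers summed to at most 11.0 CPM with Tnp1 at 0. The part of these cells in the proteasome values was not tested.

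No other gene on the lists of proteasome supply and control passed the test. Of 12 measured genes for assembly and regulation, 0 passed the edgeR test, 10 had estimates below 0 and the median log2 fold change was -0.07. The smallest p was that of Adrm1, a ubiquitin receptor of the 19S base, with 68.9 ± 7.28 CPM in Nf2 and 59.9 ± 4.09 in DKO mice (log2 fold change -0.22 ± 0.07, edgeR adjusted p = 0.167). Of 9 genes of the NRF1 route, none passed (1 with an unadjusted p under 0.05) and the median was -0.03. That gene was Ddi2, the protease that activates NRF1, with 74.3 ± 10.0 CPM in Nf2 and 86.4 ± 5.86 in DKO mice (log2 fold change 0.20 ± 0.09, edgeR adjusted p = 0.290). Of 14 genes for ubiquitin and its delivery, none passed (0 with an unadjusted p under 0.05) and the median was -0.05. Among them Ubb, a polyubiquitin gene, had 871 ± 194 CPM in Nf2 and 788 ± 57.4 in DKO mice (edgeR adjusted p = 0.600).

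Labelled sex was examined next. Between males and females, with genotype as a covariate, 0 of 41 genes passed the edgeR test (0 at an unadjusted p under 0.05, and 0 by DESeq2 at either threshold), beside 0.0164% and, unadjusted, 2.91% of all genes. Of the 41 estimates 21 were below 0, beside 50.5% of all genes. The genotype effect differed between the sexes in 0 of 41 genes by the edgeR interaction test at the adjusted threshold (0 at an unadjusted p under 0.05, and by DESeq2 0 passing and 1 unadjusted), beside 0.0109% and, unadjusted, 4.78% of all genes. Its estimates were below 0 for 35 of 41 genes, beside 51.8% of all genes, with a median of -0.22 on the log2 scale and the smallest p of 0.0560 for Psmd12 (edgeR adjusted p = 0.920). Without mouse 702, 0 of 41 genes passed either sex test by edgeR, and 2 had an unadjusted p under 0.05 for the interaction (Psmb1 and Psmd12), beside 5.21% of all genes. Among mice labelled male the median log2 fold change of the family was -0.19, and -0.05 without mouse 649. Among mice labelled female it was 0.001. The 5 inducible genes had log2 fold changes of -0.72 (Psmb9) to -0.49 (Psme2) in males and -0.10 (Psmb8) to 0.03 (Psmb9) in females. In males without mouse 702, which goes against its label, they ran from -0.50 (Psme2) to -0.36 (Psmb8), with Psmb9 at -0.37. In males without mouse 649 they ran from -0.79 (Psmb9) to -0.32 (Psme2). Both mice 649 and 702 were in the group of 3 Nf2 mice labelled male, and the sexes were not shown to differ.

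Mouse 649 stood apart in a way that divided the family. Against the mean of the 5 other Nf2 mice, 35 of the 41 genes were higher in mouse 649, beside 46.2% of all genes of at least 10 CPM, and 6 were lower, with a median difference of 0.25 on the log2 CPM scale. Psmb5 was 0.82 higher and Psmb6 0.65 higher, and the constitutive 20S genes had a median of 0.45, against 0.21 for the base and lid genes. The 6 lower genes were Psme4 (-0.46), Psmd5 (-0.30), Psmd2 (-0.28), Psme3 (-0.25), Psmd8 (-0.06) and Psmd7 (-0.05).

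This difference went with the length of the gene's exons. The 23 genes with less than 3 kb of exon had a median of 0.44 in mouse 649, and the 18 longer genes had 0.17. Across the 41 genes Pearson's r between log length and the difference was -0.58, and across the 10789 genes with a mean of at least 10 CPM it was -0.34, as a description across genes that share 1 library. The family's r ranged from -0.10 to 0.59 over the other 5 Nf2 mice, each set against the rest of its group, so that mouse 649 enters the means of the other Nf2 mice. All genes under 3 kb had a median of 0.23 and longer genes -0.10, so the proteasome genes had the higher median in both length classes. In mouse 887, against the other DKO mice, the family's r with length was -0.38 beside -0.23 across all genes of at least 10 CPM, and 28 of 41 genes were higher beside 43.0% of those genes. Over the other 5 DKO mice the family's r ranged from -0.08 to 0.57. A negative r across all genes of at least 10 CPM was also found in Nf2 mouse 1048, at -0.24. In mouse 1048, 32 of 41 proteasome genes were higher than in the other Nf2 mice, beside 57.6% of all genes of at least 10 CPM.

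**Figure D5:**
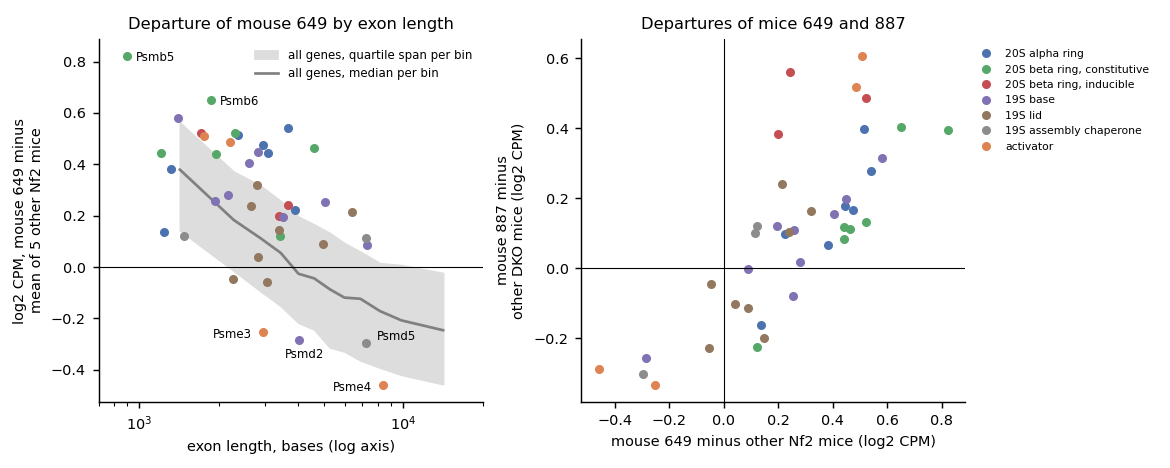
Left, log2 CPM in mouse 649 minus the mean of the other 5 Nf2 mice for each proteasome gene against exon length in bases on a log axis, with the median and the span between quartiles of all genes of at least 10 CPM per length bin in grey. Right, the same difference for mouse 649 on the horizontal axis and for mouse 887 against the other DKO mice on the vertical axis, where 34 of 41 genes have the same sign in both. The share over all genes was not computed.

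The departures of mice 649 and 887 from their own groups resembled each other, with the same sign in 34 of 41 genes (Pearson's r 0.78, Spearman's rho 0.80 across genes, 2 libraries). The same comparison over all genes was not made. Both mice had a negative r with exon length across 10789 genes (-0.34 and -0.23), as had Nf2 mouse 1048 (-0.24). The resemblance therefore cannot be read as a trait of the family. Psmb5 and Psmd2 were picked as an example because they departed in opposite directions in mice 649 and 887. Their ratio is thus no separate support. The ratio of Psmb5 to Psmd2 counts was 0.549 in mouse 649 and 0.389 in mouse 887, and 0.226 to 0.317 in the other 10 mice. These 2 mice also had the highest mitochondrial shares, and what the proteasome differences share with RNA quality or dissection was not tested.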

How the data were processed

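Ganglia were flash frozen, and a commercial provider extracted RNA, prepared poly(A) libraries and sequenced them. The submitters' processing notes name Trimmomatic 0.36, STAR 2.5.2b, featureCounts of Subread 1.5.2 and the build GRCm38, and the strand setting and treatment of reads with several matches are not given in the sources used here. The authors deposited raw counts, 1 whole number per gene and mouse, without normalization, and the methods of the study state log2(CPM + 4) values.

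Counts were filtered by filterByExpr, scaled with TMM factors and tested by the quasi-likelihood F test of edgeR 4.0.16 in R 4.3.3, on all 12 mice without covariates for genotype, with Benjamini-Hochberg adjustment over 18295 genes and a threshold of 0.05. The effect of labelled sex was fitted beside genotype, and its interaction with genotype in a further fit. CPM used library totals and n is 6 mice per genotype. Each library came from a different mouse. Log2 ratios of counts between paired genes were compared by exact permutation over 924 splits. Alternatives comprised other scaling factors and filters, DESeq2 1.42.0, limma 3.58.1 (voom with quality weights), subsets by labelled sex, each mouse left out, and, added after the data had been seen, both mice 649 and 887 left out and males without 702 or 649. Tests were tried on simulated data. Gene positions and exon lengths came from GENCODE M21 on GRCm38, and 12 of the 43 genes shared exon bases with another gene, at most 25.5% (Psmd9). Near-identical pseudogenes of Psmb5, Psmb6 and Psmb7 had at most 3 reads. Tables and figures used Python 3.11.15, pandas 2.3.3, numpy 2.4.6 and matplotlib 3.10.9.

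The family, the pathway and marker lists and the comparisons were chosen with earlier results of these data known. Values in every mouse were examined for the catalytic subunits and their inducible partners, the activators, and the 3 genes with the smallest p in each direction, the highest and lowest level in each role could be named, and up to 3 genes of each pathway list. Other genes of the family, such as those with extreme estimates, spread or departures, were named after their values were seen. Paaf1 and Ecpas, on the assembly list, were not analysed here, as the table holds no row under these symbols.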

Additional observations from a re-analysis of the deposited data

Results flagged for a closer look

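For each of the 43 genes in each genotype, the highest and lowest of 6 mice on the log2(CPM + 4) scale were set against the rest, and a mouse was singled out where its gap to the nearest other mouse exceeded Dixon's 95% critical value. Chance singles out about 1 in 20 such groups, or 4.3 of 86, and 9 were found. The groups share the same 12 libraries, so they are not separate, and the 9 cannot be read as an excess. They also include Psma8 and Psmb11, which had few reads. All 9 belonged to mouse 887 (7) or mouse 649 (2).

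Psmb5 was singled out as high in both, at 7.17 in mouse 649 (next Nf2 mouse 6.60) and 6.73 in mouse 887 (next DKO mouse 6.43). Psmd5 was singled out as low in both, at 5.76 in mouse 649 (next 6.00) and 5.87 in mouse 887 (next 6.12). In mouse 887, Psme2 at 6.26 (next 5.80), Psma4 at 6.83 (next 6.55), Psmd11 at 6.46 (next 6.29) and Psma3 at 7.07 (next 6.99) were high, and Psmd2 at 8.06 (next 8.28) was low. Mouse 702 was not singled out by this rule for any gene.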

How the results depend on the processing

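No proteasome gene passed the threshold under any alternative, each mouse left out in turn included (0 to 0). No paired analysis was possible because the genotypes share no mouse number. The genes past the threshold among all genes, 172, numbered 831 by DESeq2, 521 by limma voom, 2 in males only, 57 in females only, 314 without mice 649 and 887, 9 in males without mouse 702, 40 in males without mouse 649, and 81 to 217 with each mouse left out. The median log2 fold change of the family, -0.07, was -0.19 in males only, -0.24 in males without mouse 702, and -0.10 to -0.02 with each mouse left out, the last without mouse 649. The ratio differences ranged, with each mouse left out, from -0.38 to -0.06 for Psmb8 to Psmb5, -0.36 to -0.02 for Psmb9 to Psmb6 and -0.31 to -0.10 for Psmb10 to Psmb7, the first 2 nearest 0 without mouse 702.

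Of 300 single-gene values (12 genes, 25 alternatives), 286 kept their direction and 14 reversed, and none was past the threshold. In females only, Psmb5 was 0.11, Psmb6 0.071, Psmb9 0.027, Psmb10 0.015 and Psme3 -0.073. Psme3 was -0.018 by limma voom. With each mouse left out, Psme3 ranged from -0.038 to 0.046 and was below 0 without mouse 649, 886, 917 or 1048, and Psmb5 ranged from -0.24 to 0.035 and Psmb6 from -0.22 to 0.0059, both above 0 only without mouse 649. Psmb7 was 0.0052 without mice 649 and 887 and 0.022 in males without mouse 649. The cause of the reversals and of the differing counts was not tested.

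Unadjusted p under 0.05 was reached by 7 of the 41 genes without mouse 887 (Psme2, Psme1, Psmb8, Psmd5, Psmb10, Psmd9 and Psmb9, smallest edgeR adjusted p 0.125), beside 18.5% of all genes in that fit, and by 0 over all mice. It was reached by 5 genes in males only (9.7% of all genes), 5 in males without mouse 649 (12.9%), 3 without mice 649 and 887 (17.8%), 2 without mouse 1048 (13.5%), 2 in males without mouse 702 (8.44%), 2 without a count filter (10.3%) and 1 each without mouse 886 (13.1%) or 914 (13.9%). Depth did not limit the tested genes, which had at least 239 reads per mouse, whereas Psma8 and Psmb11 could not be compared at this depth.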
